A study of Canis lupus familiaris with 37 samples.

Results

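OSW is a canine lymphoid cell line that was derived from a T-cell lymphoma. The 4 OSW samples among the 37 canine RNA sequencing samples were selected by their sample titles and compared with the 4 samples titled as controls, which are non-neoplastic lymph nodes. Smaller comparisons set OSW against the 2 samples of CL-1, the other T-cell line, and against the 10 samples of CLBL-1 and CLBL-1M, which are B-cell lines. CLBL-1M derives from a tumour that CLBL-1 formed in a mouse, so these B-cell lines are related and not independent. The remaining samples were used for the fit and for single levels. They are 12 B-cell lymphomas, 3 intestinal lymphomas and 1 T-cell lymphoma (these 4 form 1 group of probable T-cell lymphomas in the fit), and 1 sample of the B-cell line GL-1. The lines were grown in culture medium with fetal bovine serum, and no treatment of OSW or the nodes is named. The 4 OSW samples repeat 1 line. No label says that they came from separate cultures, so the p-values are not shown to cover the spread between cultures of OSW. The 2 CL-1 samples likewise repeat a single line, and the 10 CLBL samples a line and its derivative. Calls against them describe these lines and are not shown to hold for other T-cell or B-cell lines. The spread behind the p-values was estimated over all 37 samples in 8 groups.

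The labels of the controls contradict each other. The source name of control replicate 4 is that of the T-cell lines, and the flow cytometry field calls control replicate 2 a B-cell lymphoma and control replicates 1, 3 and 4 T-cell lymphomas. It also places CL-1 with the B cells, against its source name. The groups follow the titles, and each direction in OSW was also taken against control replicate 4 alone.

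A lymph node is a mixture of T cells, B cells, macrophages, dendritic cells, vessels and a matrix-producing stroma, whereas a cultured line holds descendants of a single tumour. T cells recognise peptides on major histocompatibility complex (MHC) molecules. Class I molecules are carried by most cells with a nucleus, and class II molecules mainly by cells that present antigen, although T cells of the dog can carry them as well. In these bulk samples, fewer cells of a type and less RNA per cell cannot be told apart.

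Genes are given by their Ensembl identifiers, because 0 of these identifiers were found in the reference table of gene symbols. For the same reason the T-cell identity of OSW was not checked against marker genes known by symbol. Functional groups are lists of identifiers that the study tabulated by gene ontology or KEGG pathway term among genes differing in its lymphomas or lines. These lists were chosen on the same samples and are therefore no independent evidence of a direction. The study placed all the lists described here, except those of the long non-coding RNAs and miRNAs, in tables of such terms, and for long terms a list of the first 20 genes was read.

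The OSW libraries held 2810510 to 3152847 reads on genes and the controls 1962722 to 3034152. Levels are given as CPM, counts scaled to a common library size with TMM factors, a scale on which 3 reads, used as the detection limit, are worth 0.924 to 1.09 CPM in an OSW library and 0.913 to 1.49 CPM in a control library. Between 15794 and 16022 genes had a read in an OSW library, against 17501 to 19668 in a control library. Reads outside genes made up 68.0 to 71.3% in OSW, 76.2 to 77.6% in control replicates 1 to 3 and 82.9% in control replicate 4. Reads on more than 1 gene made up 0.405 to 0.506% in OSW, 0.129 to 0.143% in control replicates 1 to 3 and 0.476% in control replicate 4. The part of these differences in the results was not tested.

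The OSW samples resembled each other closely. Across genes, log2(CPM + 1) values of OSW pairs correlated with a Pearson coefficient of 0.977 to 0.988, OSW with control replicates 1 to 3 at 0.607 to 0.673, and OSW with control replicate 4 at 0.650 to 0.657. Control replicates 1 to 3 correlated with each other at 0.938 to 0.963 and with control replicate 4 at 0.892 to 0.922. Genes are not independent replicates, so these coefficients describe the libraries only. The biological coefficient of variation was 0.178 in OSW and 0.363 in the controls. Within OSW, replicates 1 and 3 formed one close pair and replicates 2 and 4 another, with a chi-square per degree of freedom of 5.16 and 4.17, against 7.01 to 13.0 in the other 4 pairs. Every pair differed by more than sampling noise, which separate libraries of 1 culture could also do, so the 4 samples were counted as 4 and are not shown to be separate cultures.

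The first comparison asked which genes differ between OSW and the control nodes. In the quasi-likelihood fit of edgeR, 1870 of 15162 tested genes (12.3%) passed a Benjamini-Hochberg adjusted p-value of 1e-05, the threshold used throughout. The 851 genes higher in OSW (5.61%) had a median log2 fold-change of 2.00, and the 1019 lower genes (6.72%) had a median of -5.92. Of these lower genes, 209 had no read in any OSW sample, and with those set at the bound that 3 reads per library allow, the median was -4.91. Leaving out 1 OSW library reduced the 1019 lower genes to 614 (replicate 1), 663 (replicate 2), 630 (replicate 3) and 651 (replicate 4), and leaving out control replicate 1, 2 or 3 reduced the 851 higher genes to 529, 500 and 542. Counts of list members against the nodes are to be read beside the shares over all tested genes, 5.61% higher and 6.72% lower. The median of all tested genes was -0.08. RLE size factors lowered that median to -0.24 and the share of higher genes among those called from 45.5% to 35.1%.

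Each of the 1870 genes had the same direction against control replicate 4 alone, with medians of 1.96 and -5.87, but this control was also among those that gave the calls. With this single control, whose spread is assumed to be like that of the other groups, 20 of the 851 higher and 342 of the 1019 lower genes passed the threshold, beside 0.132% and 2.29% of all tested genes. Leaving control replicate 4 out gave 652 higher and 923 lower genes. In 26 and 4 of these the OSW samples did not all lie beyond control replicate 4 in the called direction.

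**Figure D1:**
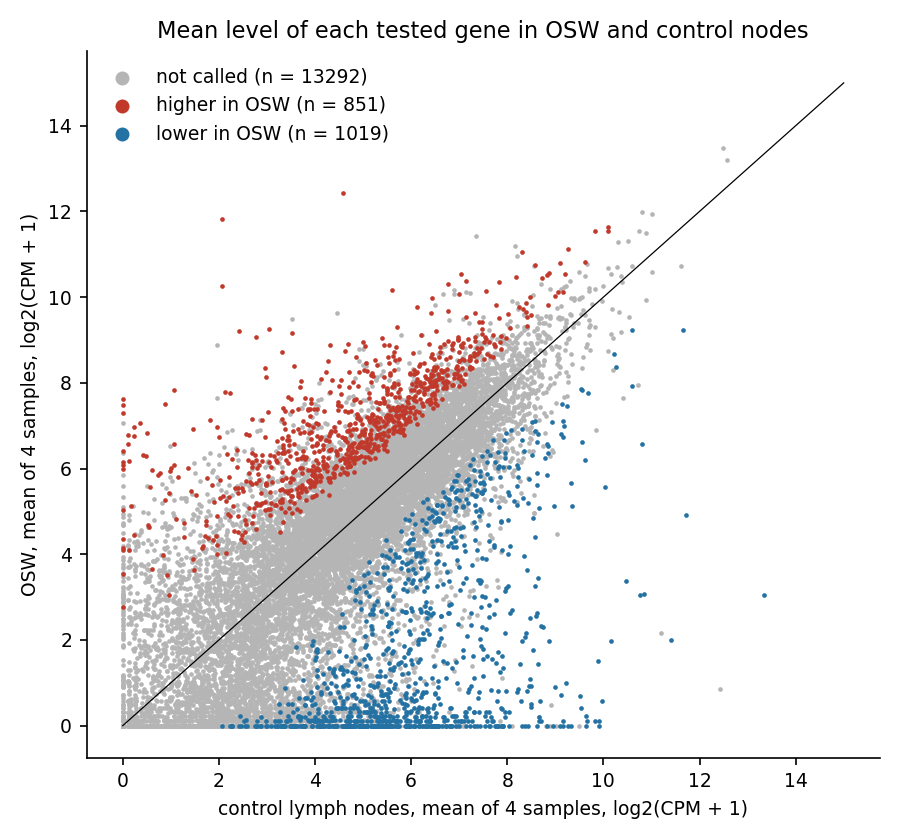
Mean level of each of the 15162 tested genes in the 4 control nodes (horizontal axis) and the 4 OSW samples (vertical axis), both as log2(CPM + 1), with 1 point per gene and a line of equal level. The 851 genes called higher in OSW lie above the line, and many of the 1019 genes called lower lie along the bottom edge, where OSW had no or few reads.

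Many genes of the nodes had no more than background reads in OSW. With at most 3 reads in every OSW sample and more than 3 in every control, 1350 genes were off in OSW, of which 606 had no read in any OSW sample and 482 passed the threshold. Among these 1350 genes, 240 had a mean above 50 CPM in the controls. The reverse, at most 3 reads in every control and more than 3 in every OSW sample, held for 216 genes, of which 30 passed the threshold and 21 had a mean above 50 CPM in OSW. Of the 216 genes, 42 had no more than 3 reads in any other sample of the series.

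MHC class II genes were almost silent in OSW. These genes encode the chains that present peptides to helper T cells. All 9 class II genes were lower in OSW, with a median log2 fold-change of -8.58, beside 6.72% lower and a median of -0.08 over all genes tested. The summed level of the 9 genes was 21.1 to 31.4 CPM in the OSW samples and 7544 to 10670 CPM in the controls.

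The class II gene ENSCAFG00000000812 had 2.77, 5.07, 2.63 and 1.62 CPM in OSW replicates 1 to 4, and 2842, 3016, 3322 and 1701 CPM in control replicates 1 to 4. Its log2 fold-change was -9.81 (SE 0.69, adjusted p = 7.24e-13). Every OSW sample lay far below every control, and the lowest control was the fourth. ENSCAFG00000018101 had 3.08, 2.17, 3.28 and 3.24 CPM in OSW and 1040, 1106, 1131 and 1307 CPM in the controls, a log2 fold-change of -8.58 (SE 0.42, adjusted p = 1.17e-16). Here both groups were tight and lay well apart. The largest fold belonged to ENSCAFG00000000814, with 1.85, 0, 0.656 and 0 CPM in OSW and 807, 970, 776 and 362 CPM in the controls (log2 fold-change -10.03, SE 0.84, adjusted p = 4.48e-11). At 3 reads or less in most OSW libraries such a level is at the limit of what this depth can show. The log2 fold-changes of the other 6 genes ran from -6.50 for ENSCAFG00000000848 to -9.59 for ENSCAFG00000000819. Because MHC genes are similar copies of one family, reads may be shared between members, and the level of a single member is uncertain.

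The 3 MHC genes listed outside class II were lowered far less. ENSCAFG00000013633 had 441, 788, 605 and 562 CPM in OSW and 3718, 4166, 3378 and 1730 CPM in the controls, and its log2 fold-change was -2.44 (SE 0.29, adjusted p = 3.63e-08). ENSCAFG00000000500 had 225, 257, 209 and 284 CPM in OSW and 1355, 2337, 1279 and 1199 CPM in the controls (log2 fold-change -2.66, SE 0.37, adjusted p = 4.36e-07). Both stayed clearly expressed in OSW, and no OSW sample reached a control. ENSCAFG00000032222 showed the smallest difference of the 3, with 381, 441, 336 and 460 CPM in OSW against 1161, 1434, 1046 and 1150 CPM (log2 fold-change -1.57, SE 0.25, adjusted p = 4.89e-06). Its call was lost without any single one of the 8 libraries, although the groups did not overlap.

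Processing and presentation of peptide antigen, the list that holds most of these MHC genes, had 14 of 20 members lower, with a median log2 fold-change of -7.0, or -5.31 with genes at their bound. All 20 members had their 4 OSW samples below the 4 controls, a pattern found in 30.8% of tested genes. Outside the MHC genes, ENSCAFG00000008234 had no read in any OSW sample and 700, 278, 229 and 366 CPM in the controls, so it was at least 396-fold lower (adjusted p = 9.93e-08). Control replicate 1 was the highest by a wide margin, and the other controls still lay far above the limit set by 3 reads.

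**Figure D2:**
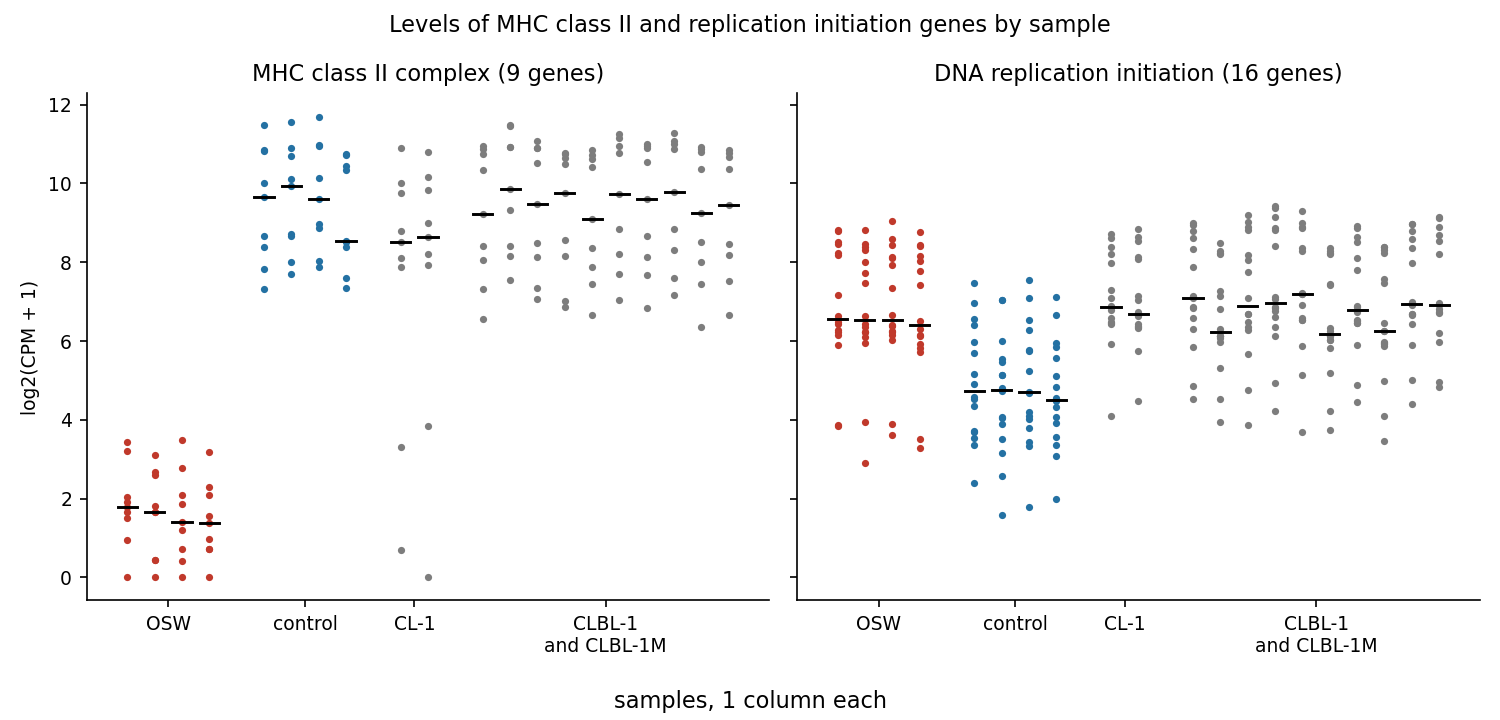
Levels, as log2(CPM + 1), of the 9 MHC class II genes (left) and the 16 genes of DNA replication initiation (right) in OSW, the control nodes, CL-1, and CLBL-1 and CLBL-1M, with 1 column of points per sample and a bar at its median. The class II genes of OSW lie near 0, summing to at most 31.4 CPM, whereas the replication genes of OSW (2548 to 2921 CPM in sum) lie above the controls (585 to 766 CPM).

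Genes of B-cell receptor signalling, by which B cells answer antigen, were also lower in OSW. Of 20 genes, 9 were lower, with a median of -2.70, and the 11 others did not pass the threshold. ENSCAFG00000014463 had 0.616, 1.09, 0.328 and 0.972 CPM in OSW and 266, 362, 342 and 396 CPM in the controls (log2 fold-change -8.76, SE 0.46, adjusted p = 5.51e-16). ENSCAFG00000012677 had 0.308, 0, 0 and 0.324 CPM in OSW and 201, 244, 276 and 269 CPM in the controls. With so few OSW reads its ratio was 1566-fold, with a 95% counting interval of 434 to 12935 and an adjusted p of 2.03e-12. Both genes were near 0 in every OSW sample and even across the controls. The summed level of the 20 genes was 887 to 944 CPM in OSW and 3239 to 3660 CPM in the controls, so other members of the list remained expressed in OSW. Counting intervals here cover counting error only.

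The haematopoietic cell lineage pathway groups surface molecules and growth factor receptors that mark stages of blood cell formation. Of its 20 genes read, 9 were lower and 1 was higher in OSW (45% and 5%, beside 6.72% and 5.61% of all genes). The median was -3.0, but the summed level of the 20 genes was 2855 to 2982 CPM in OSW and 2868 to 3289 CPM in the controls. ENSCAFG00000007036 had 0.616, 0.725, 0.656 and 0 CPM in OSW and 817, 878, 1048 and 1242 CPM in the controls (log2 fold-change -10.86, SE 0.62, adjusted p = 4.62e-15). ENSCAFG00000018219 had no OSW read and 97.6, 172, 194 and 127 CPM in the controls, and was at least 149-fold lower (adjusted p = 8.12e-11). Neither gene rose above the limit of 3 reads in OSW, while no control was low.

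The gene of that pathway that rose, ENSCAFG00000002065, had 529, 447, 557 and 389 CPM in OSW and 12.2, 37.3, 28.3 and 20.9 CPM in the controls. Its log2 fold-change was 4.28 (SE 0.45, adjusted p = 4.80e-09). Each OSW sample was more than 10 times as high as the highest control, and the level in CL-1 (0 to 0.564 CPM) and in the CLBL lines (0 to 0.551 CPM) did not exceed 2 reads. The single GL-1 sample had 70.6 CPM.

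**Figure D3:**
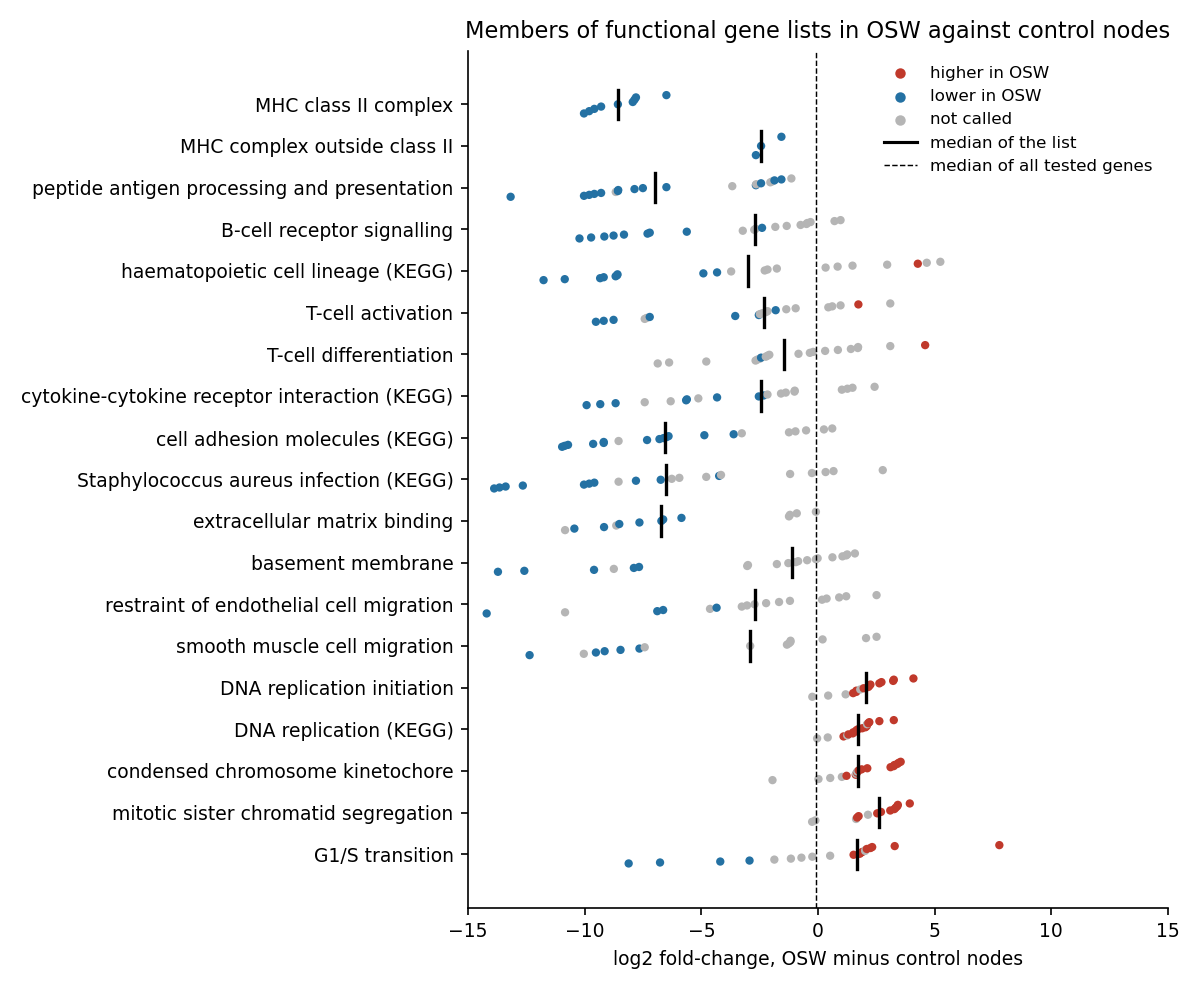
Log2 fold-change of OSW against the control nodes for each gene of 19 functional lists, with 1 point per gene, a bar at the median of the list and a dashed line at the median of all tested genes (-0.08), genes without OSW reads being drawn at their fitted value, which depends on the prior count. Points of the MHC class II list lie between -10.03 and -6.50, and the medians of the DNA replication, kinetochore and sister chromatid lists lie between 1.71 and 2.62.

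In cytokine-cytokine receptor interaction, 8 of 20 genes read were lower (40%, beside 6.72% of all genes, median -2.43) and 12 did not pass the threshold. Among cell adhesion molecules 13 of 20 were lower (65%, median -6.56, or -6.29 with genes at their bound). The adhesion gene ENSCAFG00000015177 had 0.924, 0.362, 0.656 and 0.648 CPM in OSW and 978, 410, 523 and 320 CPM in the controls (log2 fold-change -9.64, SE 0.87, adjusted p = 1.90e-10). The cytokine gene ENSCAFG00000012439 had 0.308 CPM in OSW replicate 1, none in the other OSW samples, and 78.5, 42.8, 110 and 88.9 CPM in the controls. Both were near 0 in OSW and present in each control. In NF-kappa B signalling, a route by which immune receptors switch on transcription, 9 of 20 genes read were lower (45%, median -1.48).

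The innate and myeloid lists held some of the deepest decreases. Of the 20 genes read for Staphylococcus aureus infection, a pathway of complement and phagocyte receptors, 10 were lower, with a median of -6.51, or -6.11 with genes at their bound. Of the 20 genes read for activation of myeloid leukocytes, 8 were lower and 2 were higher (40% and 10%, beside 6.72% and 5.61% of all genes). The median was -2.04. The 8 became 3 without OSW replicate 1 or 3, 4 without replicate 2 and 5 without replicate 4. The summed level of these 20 genes was 2090 to 2522 CPM in OSW and 1750 to 2335 CPM in the controls. Its gene ENSCAFG00000008404 had no OSW read and 913, 1206, 1081 and 659 CPM in the controls, and was at least 973-fold lower (adjusted p = 1.93e-09). ENSCAFG00000014220, a gene of the Staphylococcus aureus list with no OSW read and 598, 787, 735 and 446 CPM in the controls, was at least 647-fold lower (adjusted p = 9.91e-09). ENSCAFG00000014639, of the same list and also without an OSW read, had 290, 924, 614 and 363 CPM in the controls and was at least 552-fold lower (adjusted p = 2.52e-09). All 3 genes were abundant in each control node, and in CL-1 and the CLBL lines no sample had more than 3 reads of any of them. Of 15 innate immunity genes, 8 were lower with a median of -4.89, a count that fell to 4 without OSW replicate 1 and to 4 without OSW replicate 3.

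Interferon lists were mixed. Of 17 genes of type I interferon production, the early antiviral cytokines, 6 were lower and 2 were higher in OSW, with a median of -1.98. These are 35.3% and 11.8%, beside 6.72% and 5.61% of all genes. The count of 2 fell to 1 without any one of 7 libraries, all but OSW replicate 2. The higher gene ENSCAFG00000000444 had 935, 1141, 976 and 1083 CPM in OSW and 391, 355, 389 and 288 CPM in the controls (log2 fold-change 1.54, SE 0.14, adjusted p = 3.42e-10). The OSW samples lay close together and clear of the controls. ENSCAFG00000002171 went the other way, from 240, 342, 270 and 626 CPM in the controls to 4.0, 1.09, 2.30 and 2.27 CPM in OSW (log2 fold-change -7.21, SE 0.45, adjusted p = 3.64e-14). Control replicate 4 was the highest node for this gene, and OSW was uniformly low.

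Several genes of matrix and vessels, which in a node belong mainly to its stroma, had no reads in OSW. Of 13 genes of extracellular matrix binding, 7 were lower, with a median of -6.71, or -6.30 with genes at their bound. Leaving out any single OSW sample brought this count to 4. Of 20 genes read for extracellular structure organization, 6 were lower and 3 were higher (30% and 15%, beside 6.72% and 5.61% of all genes). The median was -1.66, but the summed level of the 20 genes was 7927 to 10189 CPM in OSW and 2271 to 3249 CPM in the controls. In OSW, 4801 to 6770 CPM of this belonged to ENSCAFG00000009905, described below. Of 17 genes for restraint of endothelial cell migration, 4 were lower and 13 did not pass the threshold, with a median of -2.72. In 3 of the 17 every OSW sample lay above every control, and in 12 every OSW sample lay below. Over all tested genes, 58.8% did not overlap in either direction, and 30.8% had every OSW sample below. ENSCAFG00000008692, from the list for restraint of endothelial cell migration, had no OSW read and 1117, 595, 910 and 583 CPM in the controls. It was at least 808-fold lower (adjusted p = 9.34e-08), and CL-1 and the CLBL lines had no read of it either. Of 20 genes read for the basement membrane, 5 were lower (25%, beside 6.72% of all genes). The median was -1.11, and the 5 became 3 without any single OSW sample. The basement membrane gene ENSCAFG00000029189 had no OSW read and 313, 1217, 480 and 284 CPM in the controls (at least 578-fold lower, adjusted p = 6.68e-08). Control replicate 2 stood well above the other nodes for this gene. It did so too for ENSCAFG00000003426, with 117, 572, 199 and 159 CPM in the controls and none in OSW (at least 264-fold lower, adjusted p = 3.13e-09).

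DNA replication genes rose in OSW. Of 16 genes of replication initiation, the assembly and firing of origins, 12 were higher, with a median log2 fold-change of 2.06, beside 5.61% higher over all genes tested. ENSCAFG00000016106 had 143, 177, 160 and 170 CPM in OSW and 12.2, 4.97, 12.8 and 7.47 CPM in the controls (log2 fold-change 4.09, SE 0.35, adjusted p = 4.56e-11). ENSCAFG00000001709 had 290, 209, 244 and 218 CPM in OSW and 22.8, 25.4, 25.3 and 27.3 CPM in the controls (log2 fold-change 3.25, SE 0.33, adjusted p = 1.80e-09). For both genes the lowest OSW sample was several times as high as the highest node. In 14 of the 16 genes the OSW samples and the controls did not overlap, as in 58.8% of tested genes when both directions are counted. The summed level of the 16 genes was 2548 to 2921 CPM in OSW and 585 to 766 CPM in the controls. ENSCAFG00000004754, from the same list, had 85.9, 98.2, 99.8 and 89.8 CPM in OSW and 11.8, 7.96, 9.13 and 10.8 CPM in the controls (log2 fold-change 3.23, SE 0.37, adjusted p = 1.66e-08). Both groups were even, with a wide gap between them.

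The wider KEGG list of DNA replication had 15 of 19 genes higher in OSW, with a median of 1.71. Its count depended on single libraries and was 9 without OSW replicate 1 or 3, 9 without control replicate 3 or 4, and 8 without control replicate 1 or 2. The gene ENSCAFG00000001709 described above is in both lists.

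Genes of chromosome segregation rose with them. Of 14 genes of mitotic sister chromatid segregation, the separation of copied chromosomes, 10 were higher, with a median of 2.62, and of 18 genes of the condensed chromosome kinetochore, where chromosomes attach to the spindle, 12 were higher, with a median of 1.72. The first count was 5 without control replicate 2, 3 or 4. The second was 7 without OSW replicate 2, 6 without control replicate 2 or 3, and 5 without control replicate 4. ENSCAFG00000003278 had 236, 167, 182 and 210 CPM in OSW and 12.7, 7.46, 14.3 and 16.8 CPM in the controls (log2 fold-change 3.94, SE 0.39, adjusted p = 1.45e-09). ENSCAFG00000013954 had 111, 107, 93.9 and 115 CPM in OSW and 11.8, 5.97, 8.82 and 12.7 CPM in the controls (log2 fold-change 3.43, SE 0.44, adjusted p = 1.18e-07). Each group was even and the groups lay apart. Against control replicate 4 alone the log2 fold-changes were 3.44 and 2.95.

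In the KEGG cell cycle list, 8 of 20 genes read were higher in OSW, with a median of 1.78. Its gene ENSCAFG00000019338 had 60.6, 51.8, 52.5 and 52.5 CPM in OSW and 1.69, 0.995, 3.35 and 3.36 CPM in the controls (log2 fold-change 4.46, SE 0.48, adjusted p = 7.40e-09). The nodes lay near the level of a few reads. Of 20 genes read for the G1/S transition, the entry into DNA synthesis, 9 were higher and 4 were lower. These are 45% and 20%, beside 5.61% and 6.72% of all genes. The 9 became 4 without control replicate 2 or 3, and the 4 became 1 without OSW replicate 1, 2 or 4 and 2 without OSW replicate 3 or control replicate 2.

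One gene of that list, ENSCAFG00000025466, was present in OSW and nearly absent elsewhere. It had 127, 98.2, 116 and 108 CPM in OSW and 0.422, 0, 0.913 and 0.374 CPM in the controls (log2 fold-change 7.78, SE 0.77, adjusted p = 1.54e-09). CL-1 had no read of it, and the CLBL lines had at most 1.72 CPM. All OSW samples were high, and every node lay under the limit of 3 reads.

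In the lists named for T cells the share of higher genes was close to that of all genes tested, but more genes of T-cell activation were lower. Of 20 genes read for T-cell activation, the response to antigen contact, 7 were lower (35%, beside 6.72% of all genes). The list had 1 higher gene (5%, beside 5.61% of all genes) and a median of -2.30. The 7 stayed 7 without control replicate 4 and became 6 without any other single library. The higher gene, ENSCAFG00000015916, had 162, 263, 167 and 213 CPM in OSW and 80.7, 50.7, 68.2 and 42.2 CPM in the controls (log2 fold-change 1.73, SE 0.28, adjusted p = 3.94e-06). Its groups did not overlap, but its call was lost without OSW replicate 2 or 4, or without control replicate 2, 3 or 4, which left 0 higher genes in the list. The lower gene ENSCAFG00000032693 had no OSW read and 14.8, 53.7, 32.0 and 24.3 CPM in the controls, and was at least 31.4-fold lower (adjusted p = 2.23e-07).

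Of 20 genes read for T-cell differentiation, the maturation of T cells, 1 was higher and 1 lower in OSW (5% each, beside 5.61% and 6.72% of all genes), with a median of -1.46. The higher gene, ENSCAFG00000005019, had 817, 1638, 849 and 1291 CPM in OSW and 63.3, 42.3, 43.8 and 40.3 CPM in the controls (log2 fold-change 4.60, SE 0.75, adjusted p = 5.34e-06). OSW replicates 2 and 4 were well above replicates 1 and 3, and all 4 lay far above the nodes. Its adjusted p passed the threshold narrowly and was above it without any single one of the 8 libraries, which left 0 higher genes in the list. CL-1 had 6.20 to 6.81 CPM of this gene and the CLBL lines 0 to 1.37 CPM. The T-cell lymphoma had 1051 CPM, the intestinal lymphomas 47.0 to 1832 CPM, GL-1 114 CPM and the B-cell lymphomas 0.832 to 16.8 CPM.

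Several of the most raised genes had far lower levels in the nodes. ENSCAFG00000009905, listed under extracellular structure organization, had 5056, 6770, 4801 and 5625 CPM in OSW and 3.80, 40.3, 36.8 and 11.2 CPM in the controls (log2 fold-change 7.91, SE 1.00, adjusted p = 1.00e-07). ENSCAFG00000002142, listed under myeloid activation and interferon-gamma production, had 868, 1529, 1085 and 1386 CPM in OSW and 3.38, 3.98, 3.04 and 2.24 CPM in the controls (log2 fold-change 8.59, SE 1.01, adjusted p = 6.31e-08). The nodes differed widely among themselves for the first gene and little for the second, and OSW lay far above them for both. CL-1 had at most 1.41 CPM of ENSCAFG00000009905 and 0.564 CPM of ENSCAFG00000002142, and the CLBL lines had at most 3.85 and 1.65 CPM.

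No list held ENSCAFG00000019593 or ENSCAFG00000010351, which were among the most raised genes. ENSCAFG00000019593 had 3289, 3513, 2791 and 4894 CPM in OSW and 2.53, 1.99, 2.13 and 5.98 CPM in the controls (log2 fold-change 10.13, SE 0.72, adjusted p = 7.42e-13). ENSCAFG00000010351 had 154, 173, 169 and 282 CPM in OSW and no read in any control, so it was at least 162-fold higher (adjusted p = 1.26e-09). OSW replicate 4 was the highest for both, and CL-1 and the CLBL lines had at most 4.40 CPM of the first and 0.619 CPM of the second.

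Phagosome genes, which serve the uptake and digestion of particles, moved both ways. Of 20 genes read, 4 were higher and 3 were lower (20% and 15%, beside 5.61% and 6.72% of all genes). The median was -0.48, and the 4 became 2 without OSW replicate 1 or 3 or any single control. ENSCAFG00000018634 had 215, 247, 177 and 239 CPM in OSW and 2.53, 1.99, 1.83 and 7.10 CPM in the controls (log2 fold-change 6.0, SE 0.72, adjusted p = 4.35e-08). It was high in every OSW sample, and also in CL-1 at 393 to 469 CPM, but reached only 8.48 CPM in the CLBL lines. ENSCAFG00000012941 had 767, 1953, 1076 and 1539 CPM in OSW and 207, 114, 130 and 108 CPM in the controls (log2 fold-change 3.25, SE 0.43, adjusted p = 2.16e-07). As for ENSCAFG00000005019 and ENSCAFG00000002142, OSW replicates 2 and 4 were above replicates 1 and 3.

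Both genes that the study's text gives with symbol and identifier differed between OSW and the nodes. SHCBP1 (ENSCAFG00000003704), which binds the adaptor SHC1 and takes part in cell division, had 93.9, 131, 123 and 118 CPM in OSW and 28.3, 13.4, 23.7 and 11.2 CPM in the controls (log2 fold-change 2.60, SE 0.34, adjusted p = 1.56e-07). FLT3 (ENSCAFG00000006716), a receptor tyrosine kinase of early blood progenitors, had 0.308, 2.54, 1.31 and 2.27 CPM in OSW and 38.9, 29.3, 35.0 and 27.3 CPM in the controls (log2 fold-change -4.33, SE 0.57, adjusted p = 2.28e-07). SHCBP1 was high and FLT3 low in every OSW sample, with no overlap with the nodes. SHCBP1 was at 113 to 127 CPM and FLT3 at 0.619 to 1.13 CPM in CL-1, and at 79.8 to 139 CPM and 0.308 to 3.26 CPM in the CLBL lines. The T-cell lymphoma had 195 and 5.81 CPM, whereas the single GL-1 sample had 0.312 and 442 CPM.

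Long non-coding RNAs (lncRNAs) are transcripts without a protein product. Of 96 tested lncRNAs from the study's list, 9 were higher (9.38%, beside 5.61% of all genes) and 19 were lower in OSW (19.8%, beside 6.72%), with a median of -1.87. The 9 became 3 without control replicate 1, 2 or 3, 4 without OSW replicate 3 and 5 without OSW replicate 1 or 4. The 19 became 8 without OSW replicate 1, 10 without replicate 3 and 9 without replicate 4. ENSCAFG00000039593 had 227, 132, 195 and 129 CPM in OSW and 9.71, 10.4, 3.65 and 12.3 CPM in the controls (log2 fold-change 4.25, SE 0.65, adjusted p = 2.08e-06). The groups lay far apart, but the call was lost without OSW replicate 1 or without any single control. ENSCAFG00000037515 had no OSW read and 70.5, 187, 163 and 143 CPM in the controls, and was at least 142-fold lower (adjusted p = 6.49e-07).

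The study drew attention to 5 lncRNAs in OSW, so their pattern is given as a description. ENSCAFG00000035265 had 13.5, 23.9, 11.2 and 18.5 CPM in OSW and no read in the controls, which makes it at least 14.0-fold higher (adjusted p = 1.29e-06). Its call was lost without control replicate 3 and against control replicate 4 alone (adjusted p = 0.00435), and also with only the groups compared and with the replicate block. ENSCAFG00000038492 had 12.9, 19.9, 14.8 and 21.7 CPM and ENSCAFG00000038320 had 8.62, 14.5, 15.4 and 15.6 CPM, with no read of either in any other sample of the series. They were at least 14.5-fold and 11.3-fold higher than in the nodes, but their adjusted p-values of 2.43e-04 and 3.83e-04 missed the threshold. ENSCAFG00000033802 had 15.4, 14.5, 23.0 and 20.7 CPM in OSW and at most 0.374 CPM in a node (adjusted p = 5.06e-05). ENSCAFG00000040754 had 29.2, 33.0, 26.3 and 31.4 CPM in OSW and at most 1.12 CPM in a node (adjusted p = 1.52e-04). For these 5 genes, every OSW sample was above every node, and no other line had more than 1 read of any of them.

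**Figure D4:**
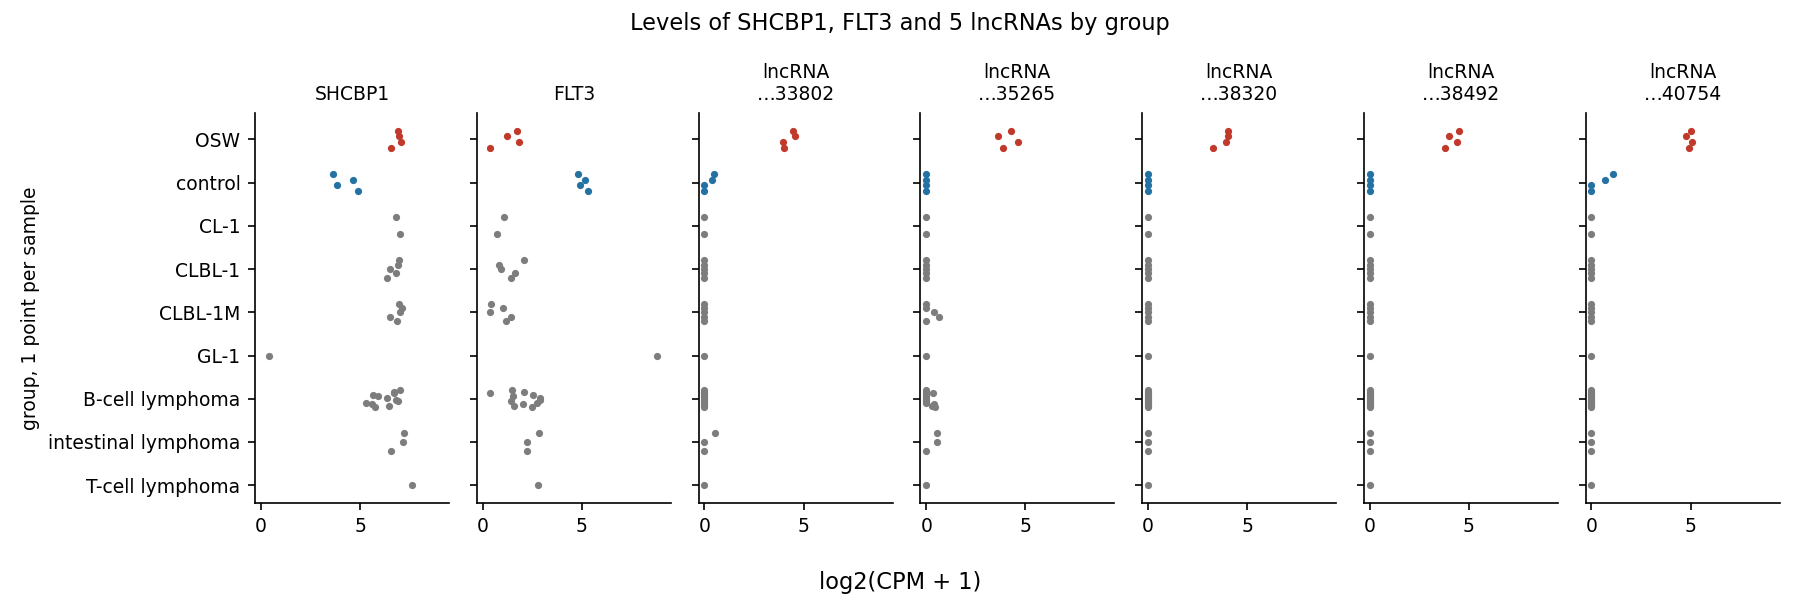
Levels, as log2(CPM + 1), of SHCBP1, FLT3 and the 5 lncRNAs (last 5 digits of their identifiers) in each of the 37 samples, by group, with OSW in red and control nodes in blue. Only OSW shows the 5 lncRNAs above 1.12 CPM, while SHCBP1 is at a similar level in CL-1 and the CLBL lines and FLT3 reaches 442 CPM in GL-1.

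The 9 miRNA genes in the study's list were measured in poly-A libraries, which record transcripts over the gene and not the mature miRNA. Of these, 4 were lower in OSW (44.4%, beside 6.72% of all genes), and 5 did not pass the threshold. The count was 1 without any single OSW sample or without control replicate 2 or 3, and 2 without control replicate 1. ENSCAFG00000028483 had 22.5, 31.2, 25.3 and 19.1 CPM in OSW and 247, 179, 222 and 121 CPM in the controls (log2 fold-change -2.97, SE 0.39, adjusted p = 1.84e-07). Its groups did not overlap. ENSCAFG00000031206 had 0.616, 0.362, 0.985 and 0.972 CPM in OSW and 13.5, 31.8, 18.6 and 2.24 CPM in the controls (log2 fold-change -4.40, SE 0.69, adjusted p = 3.24e-06). Control replicate 4 was close to OSW, and against it alone the log2 fold-change was -1.67.

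The second comparison asked where OSW differs from CL-1, the other T-cell line. The contrast holds no control node, although all groups of the fit share the estimate of the spread. In it, 341 genes were higher in OSW (2.25%) and 278 were lower (1.83%). Without CL-1 replicate 1 these were 76 and 132, and without CL-1 replicate 2 they were 68 and 121, the CL-1 sample left being assumed to vary like the other groups. The lower genes were 182, 182 and 172 without OSW replicate 1, 2 and 4. The third, against CLBL-1 and CLBL-1M together, had 1389 higher (9.16%) and 621 lower genes (4.1%). Fitting only the groups compared gave 2335 genes in place of 619 against CL-1 and 3248 in place of 2010 against the CLBL lines. All 3 comparisons share the OSW samples, so their values are set side by side and their overlap is only counted. Of the 851 genes higher than in the nodes, 48 were also higher than in CL-1, 134 than in the CLBL lines, and 711 than in neither. Of the 1019 lower genes, 117 were also lower than in CL-1, 318 than in the CLBL lines, and 657 than in neither.

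The MHC class II genes were lower in OSW than in CL-1 and the CLBL lines as well. Against CL-1, 7 of 9 were lower, with a median of -7.18, and against the CLBL lines 9 of 9 were lower, with a median of -8.45. Over all genes tested, 1.83% were lower than in CL-1 and 4.1% than in the CLBL lines. The 9 genes summed to 5145 to 5299 CPM in CL-1 and 7841 to 11949 CPM in the CLBL lines, compared with at most 31.4 CPM in OSW. The single GL-1 sample, a B-cell line, was also low, with 85.3 CPM over the 9 genes, and was not tested against OSW. ENSCAFG00000018101 had 440 to 510 CPM in CL-1 and 1301 to 1934 CPM in the CLBL lines. The exceptions in CL-1 were ENSCAFG00000000896, with 0 to 0.619 CPM in CL-1 against 80.8 to 188 CPM in the CLBL lines, and ENSCAFG00000000819, with 8.97 to 13.2 CPM in CL-1 against 129 to 287 CPM. ENSCAFG00000000819 was also low in GL-1, at 1.56 CPM, whereas GL-1 had 39.4 CPM of ENSCAFG00000000896.

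The 16 genes of replication initiation, by contrast, summed to 2754 to 2759 CPM in CL-1 and to 2120 to 4074 CPM in the CLBL lines, a range that holds the OSW samples. Their median log2 fold-change was -0.23 against CL-1, where 1 gene was lower, beside 1.83% of all genes tested. It was -0.20 against the CLBL lines, where all 16 missed the threshold. In the KEGG DNA replication list the medians were -0.29 and -0.23.

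The T-cell lists gave different counts in the 3 comparisons. Over all genes tested, 9.16% were higher and 4.1% lower than in the CLBL lines, and 2.25% were higher and 1.83% lower than in CL-1. The T-cell differentiation list, with 1 gene higher than in the nodes, had 10 of 20 genes higher and 2 lower than in the CLBL lines (median 3.97). Against CL-1 it had 1 higher and 1 lower (median 1.70). The T-cell activation list had 4 genes higher and 4 lower than in the CLBL lines (median -0.01), and 2 higher and 1 lower than in CL-1 (median 1.94). ENSCAFG00000015916 had 22.8 to 30.0 CPM in CL-1 and 73.3 to 94.8 CPM in the CLBL lines, below each OSW sample. It had 171 CPM in GL-1, 231 to 293 CPM in the intestinal lymphomas, 114 CPM in the T-cell lymphoma and 42.8 to 140 CPM in the B-cell lymphomas. B-cell receptor signalling, with a median of -2.39 and 8 lower and 2 higher genes against the CLBL lines, had 1 lower and 2 higher genes against CL-1, with a median of 2.09. ENSCAFG00000014463 had 294 to 497 CPM in the CLBL lines and 27.5 to 34.4 CPM in CL-1, both far above OSW, whereas ENSCAFG00000012677 had 111 to 232 CPM in the CLBL lines and no read in CL-1.

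Matrix genes showed a further contrast. Of the 20 genes read for ECM-receptor interaction, the contact of cells with matrix, 9 were higher in OSW than in the CLBL lines (median 3.28). Against CL-1, 2 were higher (median 3.72). Over all genes tested, 9.16% were higher than in the CLBL lines and 2.25% than in CL-1. Against the nodes 5 of the 20 were lower (25%, beside 6.72% of all genes, median -1.79), and the 5 became 2 without any single OSW sample. The adhesion gene ENSCAFG00000031652 had no read in OSW or the CLBL lines, 152 to 154 CPM in CL-1, and 77.3, 143, 85.8 and 34.7 CPM in the nodes. The cytokine gene ENSCAFG00000012439 had 235 to 295 CPM in CL-1, 41.2 to 54.8 CPM in the CLBL lines and 1 read in all OSW samples together. For both genes, OSW was the lower of the T-cell lines.

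**Figure D5:**
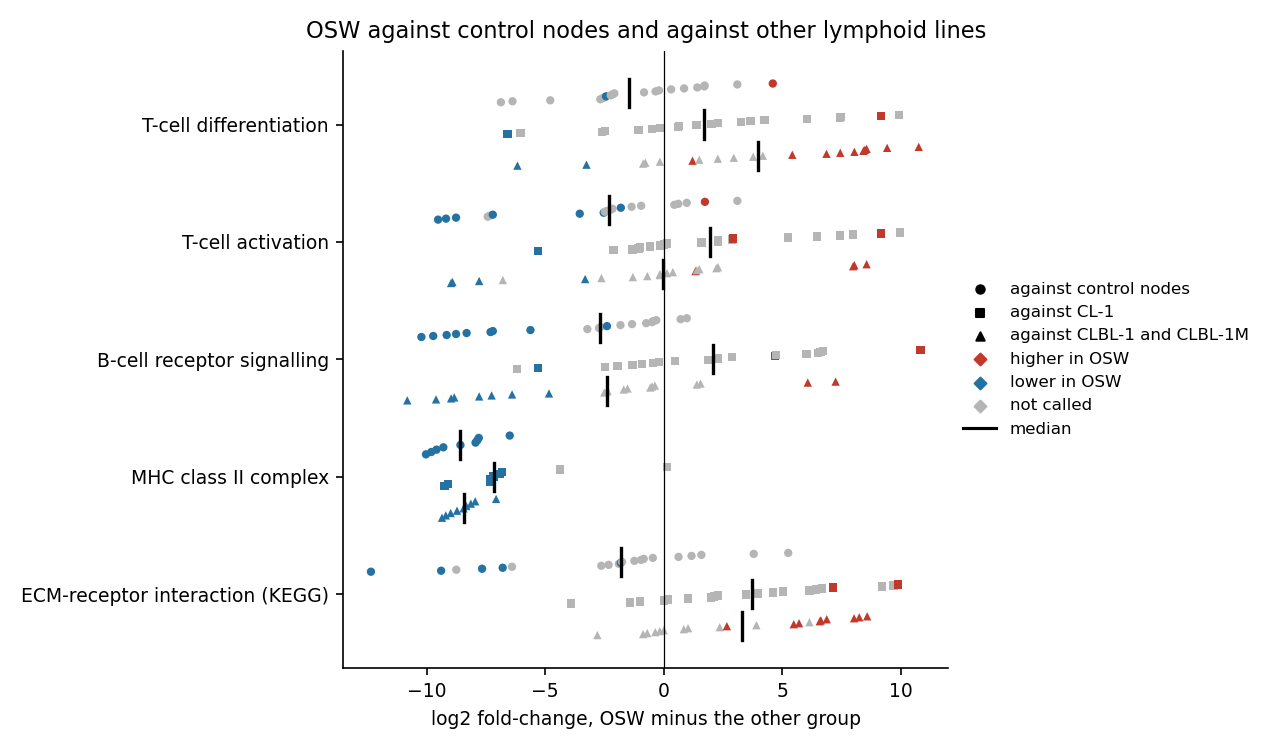
Log2 fold-change of OSW against the control nodes (circles), CL-1 (squares) and CLBL-1 with CLBL-1M (triangles) for each gene of 5 lists, with bars at the medians and colours for genes called higher or lower. The MHC class II medians are -8.58, -7.18 and -8.45, while the medians of T-cell differentiation are -1.46, 1.70 and 3.97.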

How the data were processed

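Gene levels were measured by poly-A RNA sequencing. The authors mapped reads to CanFam3.1 with BWA, removed duplicates and poor mappings with Picard and samtools, and deposited raw counts per Ensembl gene from HTSeq 0.6.1, without normalization. The strand setting of the counting is not given in the sources used here, so overlapping and antisense genes are uncertain. Rows for reads outside genes (68.0 to 82.9% per library) or on more than 1 gene were left out of library sizes.

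From these counts, genes whose highest CPM lay above the 40th percentile were kept. Using R 4.3.3 and edgeR 4.0.16, a quasi-likelihood model with TMM factors and 8 groups (intestinal and T-cell lymphomas as 1) was fitted to all 37 samples, with Benjamini-Hochberg adjustment over 15162 genes. The script was tested on simulated counts. Alternatives were DESeq2 1.42.0, RLE factors, other filters, samples and thresholds, thinned counts, a replicate block and each replicate left out.

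Members and lists were chosen with earlier results of these data known. The named genes follow a rule of up to 4 members per list and direction with the largest log2 fold-change, past the threshold and without overlap of the groups, the 15 most changed genes per direction and the genes the study names. The 581 symbols of the lists drawn up for this rule could not be matched to identifiers, so it was applied to 36 lists of the study by identifier. Of genes in no list, at most 2 per direction were named.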

Additional observations from a re-analysis of the deposited data

Results flagged for a closer look

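In 18 of 145 groups of 4 values, 1 sample stood apart from the other 3 of its group by Dixon's criterion. For independent, normally distributed values chance gives about 1 in 20 groups (7.25). These groups share the same libraries and include genes with reads in 1 sample only, which always stand apart, so 18 cannot be weighed against 7.25. Control replicate 2 was the highest node for ENSCAFG00000000500 (2337 CPM, MHC outside class II), ENSCAFG00000015228 (458 CPM) and ENSCAFG00000017855 (98.5 CPM), the last 2 from matrix and vessel lists. Control replicate 1 was the highest for ENSCAFG00000005019 (63.3 CPM). Control replicate 4 was the highest for ENSCAFG00000018634 (7.10 CPM), ENSCAFG00000019593 (5.98 CPM) and the miRNA gene ENSCAFG00000032467 (55.3 CPM, with no read in the other nodes), and in its share of reads on more than 1 gene (0.476%).

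Among the OSW samples, replicate 4 was the highest for ENSCAFG00000010351 (282 CPM) and replicate 1 for ENSCAFG00000019338 (60.6 CPM), while replicate 1 was the lowest for the lncRNA ENSCAFG00000038320 (8.62 CPM). The other cases were differences of 1 or 2 reads. Replicate 2 had 0.362 CPM of ENSCAFG00000007963, replicate 1 had 0.308 CPM of ENSCAFG00000012876 and of ENSCAFG00000012439, and replicate 4 had 0.648 CPM of ENSCAFG00000011751 and 0.324 CPM of ENSCAFG00000011041 and ENSCAFG00000038987, with 0 in the other OSW samples. Replicate 4 had 0 CPM of ENSCAFG00000007036, where the others had a trace.

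Of the genes with values given, 19 differed between the T-cell lines OSW and CL-1 in edgeR's test of that difference. The log2 fold-change of OSW minus CL-1 was -9.25 for ENSCAFG00000000812, -9.10 for ENSCAFG00000000814, -7.33 for ENSCAFG00000032102, -7.31 for ENSCAFG00000018101, -7.18 for ENSCAFG00000000806, -6.92 for ENSCAFG00000000803 and -6.82 for ENSCAFG00000000848. These are 7 of the 9 MHC class II genes. It was -5.30 for ENSCAFG00000014463 of B-cell receptor signalling and -6.85 for ENSCAFG00000014175 of the haematopoietic lineage.

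OSW was higher than CL-1 for ENSCAFG00000002065 (10.48), ENSCAFG00000015916 (2.93) and ENSCAFG00000000444 (1.22). It was also higher for ENSCAFG00000009905 (12.16), ENSCAFG00000019593 (11.94), ENSCAFG00000002142 (11.82) and ENSCAFG00000010351 (8.64), with at most 1.41 CPM of each in CL-1. For 3 genes 1 line had no or 1 read, so the fitted values depend on the prior count of the fit: ENSCAFG00000025466 (11.37), ENSCAFG00000012439 (-11.06) and ENSCAFG00000031652 (-11.81).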

How the results depend on the processing

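OSW differed from the controls in 1870 genes, a count that became 3349 with DESeq2 and a prior on fold-changes, 3259 without the prior, 8620 at an adjusted p of 0.05 and 367 against control replicate 4 alone. Leaving out single samples gave 1217 to 1575 genes, the lowest being 1217 and 1246 without OSW replicates 1 and 3. OSW differed from CL-1 in 619 genes, which became 1408 and 1303 with DESeq2, 4673 at 0.05, 2335 with the groups compared alone, 379 with the replicate block and 189 to 476 with single samples left out. Against CLBL-1 and CLBL-1M the 2010 genes became 6565 at 0.05 and 3248 with the groups compared alone, and single OSW samples left out gave 1568 to 1644. In the other alternatives run, these 3 counts stayed within 1.5 times. Exchanging the CLBL-1 and CLBL-1M names was not run, since both are averaged. The cause of these changes was not tested.

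The replicate block gave 1303 genes against the controls and 1435 against the CLBL lines. Samples with the same number deviated together with correlations of -0.07 to 0.08, within the -0.16 to 0.16 of samples with different numbers. With so few pairs this shows no pairing by number but cannot exclude one. Of the 72 called genes with values given, 10 lost their call with the block, 10 with only the groups compared, 37 against control replicate 4 alone, 2 with RLE factors, 1 with filterByExpr and 6 to 10 with a sample left out, and each kept its direction in the 18 alternatives. The miRNA gene ENSCAFG00000032467, not called, changed sign, from -0.12 to 1.41 with the block. Its log2 fold-change ran from -0.54 without control replicate 3 to 8.25 without control replicate 4.

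At 3 reads per library, OSW levels below about 0.992 CPM on average cannot be told from 0, so folds of genes without reads are lower bounds.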

Other observations

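Further lists also had members lower in OSW than in the control nodes. Over all genes tested, 6.72% were lower and 5.61% were higher than in the nodes. Of the 20 genes read for leukocyte apoptosis, 6 were lower and 2 higher, with a median log2 fold-change of -3.04, or -2.81 with genes at their bound, and the 6 became 3 without any single OSW sample. Of the 20 read for tyrosine-protein kinases, 9 were lower and 2 higher (median -3.82), and the 2 became 1 without OSW replicate 1, 3 or 4 or without control replicate 1, 2 or 3. Of the 20 read for interferon-gamma production, 8 were lower and 2 higher (median -4.11), and the 2 became 1 without any single one of the 8 libraries.

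The miRNA gene ENSCAFG00000032467, chosen after its values were seen, had 6.77, 18.5, 12.5 and 13.6 CPM in the OSW samples and 55.3 CPM in control replicate 4, but no read in control replicates 1 to 3. CL-1 had 15.8 to 27.6 CPM and the CLBL lines 9.36 to 31.9 CPM. Control replicate 4 was thus the single node with reads of this gene, as the lines had. It also resembled the lines in its percentage of reads assigned to several genes. The most abundant gene of OSW, ENSCAFG00000029384, not called, had 8808 to 14700 CPM in OSW. It had 607 to 703 CPM in control replicates 1 to 3 and 20895 CPM in control replicate 4. The next, ENSCAFG00000032276, also not called, had 7151 to 11540 CPM in OSW, 2002 to 2896 CPM in control replicates 1 to 3 and 16913 CPM in control replicate 4. What the lines and this control have in common was not tested.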
